A study of Rattus norvegicus with 24 samples.

Results

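Atp2a2, Ryr2 and Cacna1c were followed after spinal cord injury (SCI) in male Wistar rats, in left ventricle. The 3 genes were chosen by their Ensembl IDs, ENSRNOG00000001285 for Atp2a2, ENSRNOG00000017060 for Ryr2 and ENSRNOG00000007090 for Cacna1c, out of 23098 IDs in a table of counts per gene. The table holds IDs only, and the symbols come with the choice of the genes. All 3 passed the filter on low counts, as did 15065 genes in all. Tissue was the free wall at mid-ventricular level. The SCI 1d, SCI 3d and SCI 12w groups had the cord fully cut at a high thoracic level and their hearts were taken after 1 day, 3 days or 12 weeks. The SHAM group had only the dura opened at that level with hearts taken after 7 days, a time that no SCI group shares. Each group had 6 libraries of total RNA depleted of ribosomal RNA. The labels used here give no age and do not say that each library came from its own rat. The p-values therefore set the difference between groups only against the spread between these libraries, which may be technical.

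These genes encode the proteins that move calcium in each heartbeat. Cacna1c encodes the pore-forming subunit of the L-type calcium channel, through which calcium enters the ventricular muscle cell during the action potential. Ryr2 encodes the ryanodine receptor, the channel that this entry opens to release calcium from the sarcoplasmic reticulum. Atp2a2 encodes the SERCA pump, which returns calcium to that store so that the muscle relaxes. Sympathetic nerves act on this cycle through beta-adrenergic receptors and protein kinase A, and a cord cut at a high thoracic level interrupts the descending control of those nerves. The study asked how such an injury changes the RNA of the heart.

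Cacna1c was the one member that passed the test in any comparison. At 1 day its level was 1.33-fold that of SHAM (95% interval 1.19 to 1.48), with all 6 SCI 1d libraries above every SHAM library. At 12 weeks it was 1.17-fold (1.05 to 1.30), a difference that passed the test with all libraries and was lost under several other settings. Atp2a2 and Ryr2 did not pass the test at any time, and their intervals kept every difference from SHAM between 0.91-fold and 1.16-fold.

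The bases before the start of each gene are shown to set Cacna1c beside the members that were not called. Each line gives the 250 bases upstream of the start in the RefSeq promoter table (build GRCr8, which is not the build of the counts), read along the gene's own strand. The table holds 1 start per gene, and which start these hearts use was not measured. Capitals mark every match, on either strand, to any of 7 transcription factor motifs, which are spelled out after the sequences.
Cacna1c (GRCr8 chr4:154051749-154051998, minus strand): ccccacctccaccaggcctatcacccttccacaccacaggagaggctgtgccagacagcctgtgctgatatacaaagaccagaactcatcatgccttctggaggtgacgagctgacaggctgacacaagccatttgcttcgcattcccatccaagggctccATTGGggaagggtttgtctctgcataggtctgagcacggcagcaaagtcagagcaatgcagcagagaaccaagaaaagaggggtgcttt
Atp2a2 (GRCr8 chr12:39733269-39733518, plus strand): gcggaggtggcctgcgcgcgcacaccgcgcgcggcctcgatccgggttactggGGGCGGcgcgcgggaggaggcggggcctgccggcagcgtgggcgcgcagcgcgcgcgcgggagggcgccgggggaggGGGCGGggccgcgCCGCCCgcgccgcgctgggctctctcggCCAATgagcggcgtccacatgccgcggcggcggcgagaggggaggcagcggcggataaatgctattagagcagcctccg
Ryr2 (GRCr8 chr17:63081277-63081526, plus strand): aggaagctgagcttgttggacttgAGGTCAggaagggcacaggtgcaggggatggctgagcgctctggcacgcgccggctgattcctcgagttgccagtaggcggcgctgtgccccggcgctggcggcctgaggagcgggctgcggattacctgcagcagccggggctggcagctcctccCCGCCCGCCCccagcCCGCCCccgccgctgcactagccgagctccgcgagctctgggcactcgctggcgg
The Cacna1c window had 54.4% G and C and 3 CG pairs, the Atp2a2 window 80.0% and 45, and the Ryr2 window 72.0% and 23. The median over 33469 windows of this length was 51.2%. GGGCGG, the core of the GC box, occurred 3 times before Atp2a2 and 3 times before Ryr2, with a pair of the Ryr2 matches overlapping, and had no match before Cacna1c. It was found in 30.5% of all windows. The box bound by nuclear factor Y, CCAAT, had 1 match before Cacna1c, which is the one motif marked there, and 1 before Atp2a2, and occurred in 34.0% of windows. The nuclear receptor half-site AGGTCA had 1 match, before Ryr2, against 14.1% of windows. The remaining motifs had no match in these 3 windows. They were the E box CACGTG, found in 5.6% of all windows, the muscle-type E box CAGCTG, found in 12.0%, the cyclic AMP response element TGACGTCA, found in 1.6%, and the GATA factor site GATAAG, found in 6.2%. A match is a run of letters and not evidence of binding.

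Libraries held 15002476 to 70340174 counts. The mean was 46931046 in SHAM and 50110657 at SCI 1d, and lower at SCI 3d (33413527) and SCI 12w (31402927). At these depths the counts of the members were large, and the lowest was 9232, for Cacna1c in SCI 3d replicate 5. Counting error alone would there be 1.04% of the value if each count were 1 independent fragment, which may not hold. The table gives no names for other genes, so neither the tissue label nor a second cell type was checked with markers, and the wider calcium-handling genes were not analysed here. The SCI 3d and SHAM libraries carry the numbers 57 to 68 and the SCI 1d and SCI 12w libraries 77 to 88. The comparisons of SCI 3d with SHAM and of SCI 12w with SCI 1d therefore lie within 1 run of numbers. For the other 4, the run of numbers and the group cannot be told apart. The libraries that correlated least with their own group were SCI 12w replicate 3, SCI 3d replicate 5 and SCI 12w replicate 1. In a piece of ventricular wall, fewer cells of a type and less RNA per cell cannot be told apart.

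Cacna1c, which supplies the trigger calcium, was compared first between SCI 1d and SHAM. Levels are in CPM, the usual counts-per-million scale with library sizes corrected by TMM factors. In the SCI 1d libraries Cacna1c had 702 CPM at the lowest, 757 at the median and 785 at the highest. In the SHAM libraries it had 508, 569 and 605 CPM. The groups did not overlap. The means were 747 ± 32.6 CPM at SCI 1d and 563 ± 35.1 CPM in SHAM (SD, n = 6 each). The log2 fold change was 0.41 (SE 0.0752, edgeR adjusted p = 0.000351). Of the 15065 genes tested, 24% were called in this comparison at an adjusted p under 0.05 (11.9% as higher), and in 14.8% the groups did not overlap (6.9% with SCI 1d higher), so that a call by itself does not set Cacna1c apart from other genes. Of the 3 members, 1 was called. Among the 3615 called genes, 55.5% had a larger change than Cacna1c. The run of library numbers differs between these groups, and run and group cannot be told apart. Time since surgery also differs, 1 day at SCI 1d and 7 days in SHAM. The injury and the time since surgery cannot be told apart here.

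**Figure D1:**
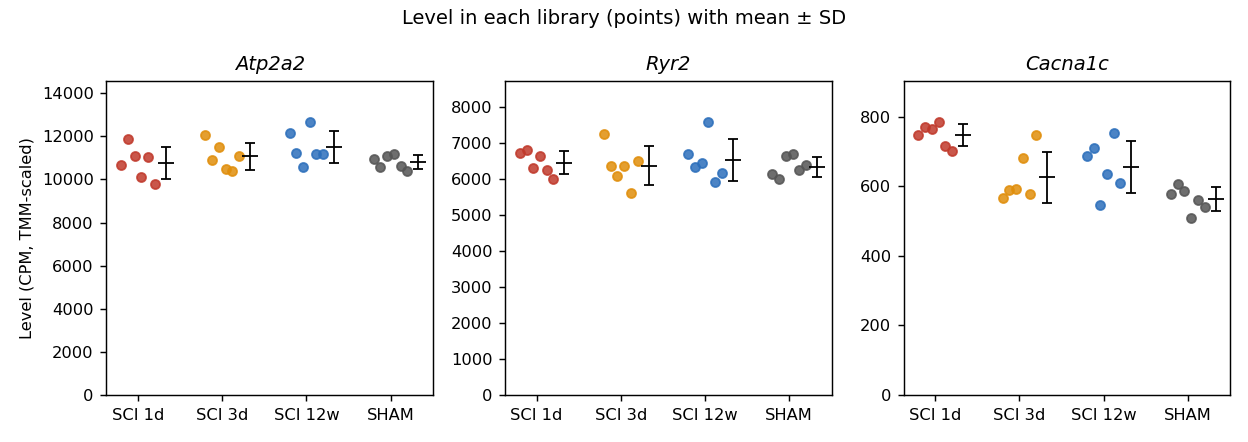
Level of each gene in CPM (vertical axes, from 0) in the 6 libraries of SCI 1d, SCI 3d, SCI 12w and SHAM. Points are libraries, and the black marks are the mean and SD. The 6 Cacna1c points of SCI 1d, at 702 to 785 CPM, lie above all SHAM points, at 508 to 605 CPM, while the Atp2a2 and Ryr2 points of the groups overlap.

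At 3 days Cacna1c had 566 CPM in the lowest SCI 3d library, 591 at the median and 748 in the highest, against 508, 569 and 605 CPM in SHAM. The SCI 3d libraries were uneven, since replicate 6 with 748 CPM and replicate 4 with 680 CPM lay above every SHAM library and the other 4, at 566 to 593 CPM, lay within the SHAM range. The means were 625 ± 72.5 CPM at SCI 3d and 563 ± 35.1 CPM in SHAM (SD, n = 6 each). The log2 fold change of 0.15 (95% interval -0.00 to 0.31) did not pass the test (edgeR adjusted p = 0.172), in a comparison that called 17.5% of genes. None of the 3 members was called, and without any 1 of the 24 libraries the log2 fold change of Cacna1c was 0.098 to 0.18 and was not called.

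At 12 weeks Cacna1c had 546 CPM in the lowest library, 661 at the median and 752 in the highest, against 508, 569 and 605 CPM in SHAM. Of the SCI 12w libraries, 5 lay above every SHAM library, and replicate 3, which correlated least with its group, lay within the SHAM range. The means were 656 ± 74.6 CPM at SCI 12w and 563 ± 35.1 CPM in SHAM (SD, n = 6 each). The log2 fold change was 0.22 (SE 0.0752, edgeR adjusted p = 0.0356), and 1 of the 3 members was called where 22.1% of genes were (11.3% as higher). The call was lost without SHAM replicate 4 (0.19, edgeR adjusted p = 0.0896), SHAM replicate 5 (0.22, adjusted p = 0.0569) or SHAM replicate 6 (0.21, adjusted p = 0.0683). It was also lost without SCI 12w replicate 1 (0.21, adjusted p = 0.0627), SCI 12w replicate 2 (0.20, adjusted p = 0.0722) or SCI 12w replicate 5 (0.18, adjusted p = 0.0916). Without all 3 least correlated libraries it was kept, at 0.26 (edgeR adjusted p = 0.0158). The rats at 12 weeks were also collected later after surgery than the SHAM rats, and their libraries lie in another run of numbers. The injury, the passing weeks and the run of numbers cannot be told apart.

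The direct comparisons between times put Cacna1c lower at the later times, short of the threshold. SCI 3d stood at 0.837-fold of SCI 1d (95% interval 0.752 to 0.932, edgeR adjusted p = 0.0627), and 5 of the 6 SCI 3d libraries lay below every SCI 1d library. This comparison called 2.74% of genes and none of the members. Without SCI 3d replicate 6 the log2 fold change was -0.32 in place of -0.26 and was called (edgeR adjusted p = 0.0240). It was called too without SCI 12w replicate 3 (-0.26, adjusted p = 0.0348) or SCI 12w replicate 5 (-0.26, adjusted p = 0.0477), which enter only through the shared estimate of spread and the scaling. SCI 12w stood at 0.878-fold of SCI 1d (0.789 to 0.977, edgeR adjusted p = 0.0556), within 1 run of library numbers and in a comparison that called 33.9% of genes and none of the members. There the log2 fold change of -0.19 was called without SCI 12w replicate 1 (-0.21, edgeR adjusted p = 0.0490), SCI 12w replicate 2 (-0.21, adjusted p = 0.0405), SCI 12w replicate 5 (-0.24, adjusted p = 0.0189) or SCI 3d replicate 6 (-0.19, adjusted p = 0.0313). SCI 12w and SCI 3d differed by 0.07 on the log2 scale (-0.09 to 0.22, edgeR adjusted p = 0.516), where 31.3% of genes and none of the members were called. From low to high, the mean levels of Cacna1c ran from SHAM through SCI 3d and SCI 12w to SCI 1d, and no neighbours in this order differed by the test. This order splits along the runs of library numbers, with SHAM and SCI 3d at 57 to 68 and SCI 12w and SCI 1d at 77 to 88. Both comparisons that called Cacna1c, SCI 1d and SCI 12w against SHAM, cross the runs, where run and group cannot be told apart. Within a run, SCI 3d against SHAM (edgeR adjusted p = 0.172) and SCI 12w against SCI 1d were not called.

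**Figure D2:**
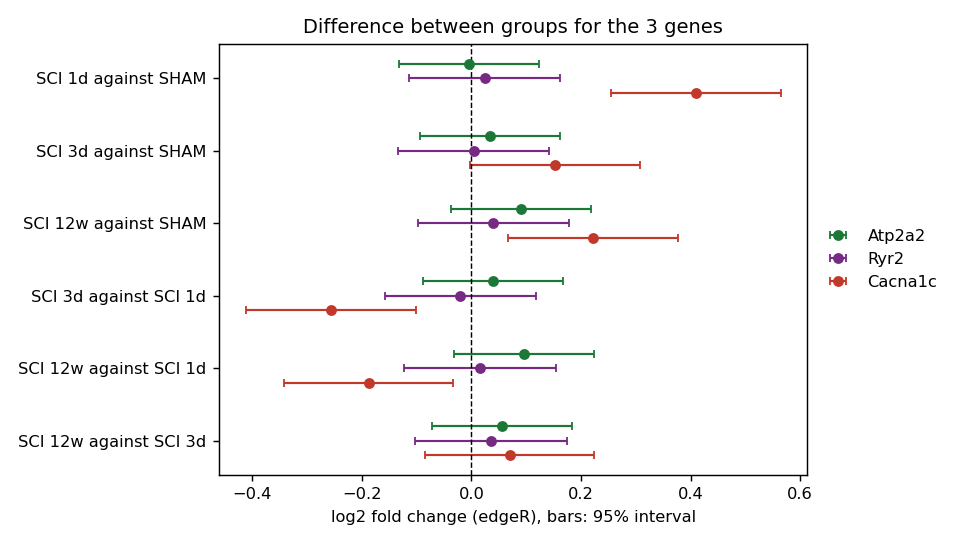
Log2 fold change (horizontal axis) of Atp2a2, Ryr2 and Cacna1c in the 6 comparisons, with 95% intervals as bars and a dashed line at no difference. The Cacna1c interval for SCI 1d against SHAM, 0.25 to 0.56, lies farthest from 0. Those for SCI 12w against SHAM (0.07 to 0.38), SCI 3d against SCI 1d (-0.41 to -0.10) and SCI 12w against SCI 1d (-0.34 to -0.03) also exclude 0. Both intervals between times belong to differences that did not pass the test after adjustment. Every Atp2a2 and Ryr2 interval includes 0.

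Ryr2, which releases the stored calcium, had 5988 CPM in the lowest SCI 1d library, 6473 at the median and 6789 in the highest. The SCI 3d libraries had 5602, 6353 and 7254 CPM, the SCI 12w libraries 5896, 6381 and 7575 CPM, and the SHAM libraries 5981, 6313 and 6686 CPM. All 4 groups overlapped, and the SCI 3d and SCI 12w groups were the widest, with an SD of 8.53% and 8.96% of the mean, against 4.93% at SCI 1d and 4.38% in SHAM. The log2 fold changes against SHAM were 0.02 at 1 day (95% interval -0.11 to 0.16, edgeR adjusted p = 0.827), 0.00 at 3 days (-0.13 to 0.14, adjusted p = 0.977) and 0.04 at 12 weeks (-0.10 to 0.18, adjusted p = 0.718). SCI 12w replicate 4 held the highest value, 7575 CPM, and without it the 12 week value was -0.0075. From low to high the means ran from SHAM (6338 CPM) through SCI 3d (6356) and SCI 1d (6446) to SCI 12w (6514), and no pair of groups differed by the test.

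Atp2a2, which refills the store, had 9796 CPM in the lowest SCI 1d library, 10863 at the median and 11864 in the highest. The SCI 3d libraries had 10393, 10998 and 12056 CPM, the SCI 12w libraries 10597, 11219 and 12670 CPM, and the SHAM libraries 10407, 10787 and 11202 CPM. The SHAM libraries were close to each other, with an SD of 2.97% of the mean, against 6.90% at SCI 1d, 5.66% at SCI 3d and 6.60% at SCI 12w. At 12 weeks 4 of the 6 SCI libraries lay above every SHAM library, although the difference did not pass the test (log2 fold change 0.09, 95% interval -0.04 to 0.22, edgeR adjusted p = 0.318). At 1 day it was -0.01 (-0.13 to 0.12, adjusted p = 0.963) and at 3 days 0.03 (-0.09 to 0.16, adjusted p = 0.756). The sign of the 1 day value turned with the scaling. The mean levels ran from SCI 1d (10769 CPM) through SHAM (10810) and SCI 3d (11072) to SCI 12w (11507), with no pair of groups called.

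The 95% intervals, which are not adjusted for the number of genes, bound the differences of the uncalled members. Against SHAM, the interval of the Atp2a2 level ran between 0.912-fold and 1.09-fold at 1 day, 0.937-fold and 1.12-fold at 3 days, and 0.974-fold and 1.16-fold at 12 weeks. For Ryr2 the bounds were 0.924-fold and 1.12-fold, 0.911-fold and 1.10-fold, and 0.934-fold and 1.13-fold in the same order of time. At 1 day 98.1% of tested genes had a larger log2 fold change than Atp2a2 in size, 92.2% than Ryr2 and 22.9% than Cacna1c. At 12 weeks these shares were 72.1%, 87.5% and 42.4%.

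The ratio of the members within a library was compared next, since it does not depend on how libraries are scaled. The counts are not corrected for length, so a ratio has meaning only beside the same ratio in other libraries. In the SCI 1d libraries there were 12.9 counts of Atp2a2 per count of Cacna1c at the lowest, 14.4 at the median and 15.5 at the highest, against 17.5, 19.0 and 22.0 in SHAM. The groups did not overlap. The mean log2 ratio was lower by 0.42 on the log2 scale at SCI 1d (3.85 ± 0.0977 against 4.27 ± 0.109 in SHAM, SD, n = 6 each). The two-sided exact permutation test gave p = 0.00216, the smallest that this design allows (adjusted p = 0.0195 over 18 ratio tests). The ratio of Ryr2 to Cacna1c moved in the same direction, with 8.24, 8.62 and 8.98 counts per count of Cacna1c at SCI 1d and 9.88, 11.2 and 13.2 in SHAM, and again no overlap. Its mean log2 ratio was 3.11 ± 0.0448 at SCI 1d and 3.49 ± 0.141 in SHAM, a log2 difference of -0.39 (exact permutation p = 0.00216, adjusted p = 0.0195). Both differences stayed past the threshold without any 1 of the 12 libraries. They share the Cacna1c counts and the libraries, and are not independent of each other or of the fold change above.

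The ratio of Atp2a2 to Ryr2, the store's pump to its release channel, did not pass the test in any of the 6 comparisons. It was 1.52, 1.69 and 1.77 at the lowest, median and highest SCI 1d library, 1.65, 1.71 and 1.89 at SCI 3d, 1.64, 1.80 and 1.90 at SCI 12w, and 1.63, 1.69 and 1.79 in SHAM. These ranges overlapped throughout. The largest difference was 0.08 on the log2 scale, for SCI 12w against SCI 1d (exact permutation p = 0.123, adjusted p = 0.300). At 3 days and 12 weeks neither ratio to Cacna1c differed from SHAM by the test, with log2 differences of -0.11 and -0.13 for Atp2a2 (exact permutation adjusted p = 0.327 and 0.300) and of -0.15 and -0.18 for Ryr2 (adjusted p = 0.300 each). The call of Cacna1c itself at 12 weeks had no counterpart in these ratios.

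**Figure D3:**
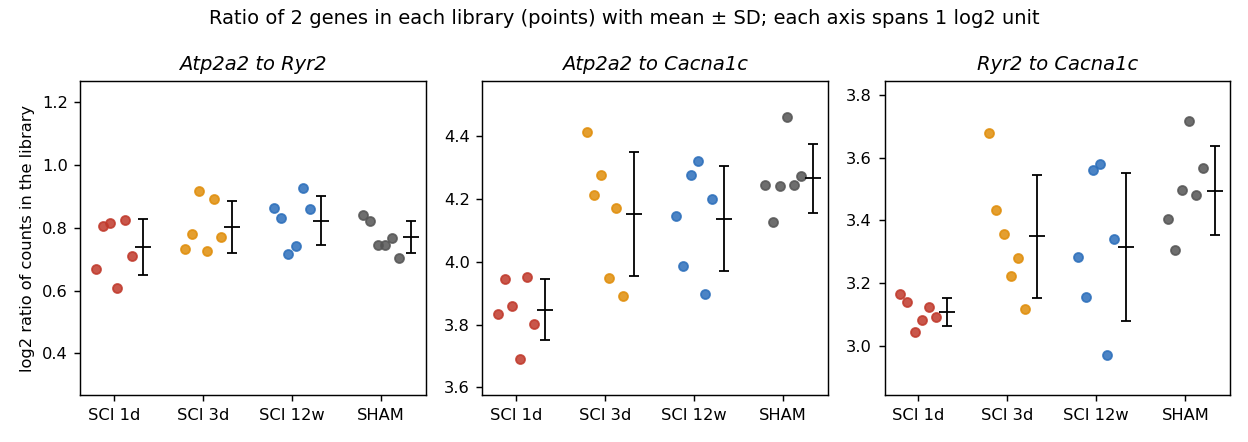
Log2 ratio of the counts of a pair of members (vertical axes, each spanning 1 log2 unit and not starting at 0) in the libraries of each group, with the mean and SD in black. The SCI 1d points lie below all SHAM points in both ratios to Cacna1c, and the groups overlap in the ratio of Atp2a2 to Ryr2.

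Between libraries of 1 group, Atp2a2 and Ryr2 varied together, and on the TMM-scaled levels Cacna1c did not follow them. Over the 24 libraries, the deviations of Atp2a2 and Ryr2 from their group means had r = 0.66 and rho = 0.55 (permutation p = 0.00167 and 0.0104, adjusted p = 0.00501 and 0.0313 over 3 pairs). Without the 2 libraries farthest from the median, SCI 1d replicate 2 and SCI 12w replicate 4, r was 0.53 (permutation adjusted p = 0.0824), so the relation rests in part on those libraries. For Atp2a2 and Cacna1c r was 0.06 and rho 0.04 (permutation p = 0.819 and 0.874), and for Ryr2 and Cacna1c r was -0.09 and rho -0.01 (p = 0.734 and 0.960). With library totals in place of TMM scaling r was 0.75 for Atp2a2 and Ryr2, 0.65 for Atp2a2 and Cacna1c and 0.50 for Ryr2 and Cacna1c (permutation adjusted p = 0.00093, 0.00609 and 0.0629). Without the 2 libraries farthest in each pair these were 0.57, 0.40 and 0.19 (permutation adjusted p = 0.0483, 0.168 and 0.438). The higher values for Cacna1c on that scale thus rest in part on those libraries. By rank on that scale, rho was 0.56 for Atp2a2 and Cacna1c and 0.43 for Ryr2 and Cacna1c (permutation adjusted p = 0.0137 and 0.0671). Without the 2 farthest libraries rho was 0.41 and 0.19 (permutation adjusted p = 0.124 and 0.434). How Cacna1c relates to Atp2a2 within groups therefore depends on the scaling.

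Across all 24 libraries and all groups, the gene whose log2 CPM was most like that of Cacna1c had r = 0.86, and the next pair had r = 0.85 and 0.83. The corresponding values were 0.79, 0.77 and 0.70 for Atp2a2 and 0.82, 0.75 and 0.74 for Ryr2. Among the 15064 other genes tested, 0 reached r = 0.9 with any member. These are the highest of many values and a description only, and the genes cannot be named because the table pairs no IDs with names.

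The Cacna1c level also moved with the makeup of the libraries. The 10 most counted genes, members left out, took 32.1 to 35.9% of the counts in the SCI 1d libraries, 30.5 to 40.1% at SCI 3d, 29.9 to 35.2% at SCI 12w and 32.5 to 35.8% in SHAM. Within groups Cacna1c was lower where this share was higher, with r = -0.74 and rho = -0.73 over the 24 libraries (permutation p = 0.00064 and 0.00078, adjusted p = 0.00192 and 0.00234 over 3 members). Without the 2 farthest libraries, SCI 3d replicates 1 and 6, r was -0.69 (permutation adjusted p = 0.0066). Only 0.0465% of 15055 genes had an r as low. Taken group by group, r was -0.18 at SCI 1d, -0.79 at SCI 3d, -0.88 at SCI 12w and -0.78 in SHAM (n = 6 each, exact permutation p = 0.728, 0.0458, 0.0181 and 0.0625), and none passed after adjustment over the 4 (adjusted p = 0.728, 0.0833, 0.0722 and 0.0833). Without the 2 farthest libraries of each group (n = 4) r was 0.16 at SCI 1d, -0.57 at SCI 3d, -0.34 at SCI 12w and -0.64 in SHAM, so the SCI 12w value in particular rests on those libraries. For Atp2a2 r was -0.14 and for Ryr2 0.24 (permutation p = 0.567 and 0.389), and without SCI 3d replicates 1 and 6 r was -0.51 for Atp2a2 (permutation adjusted p = 0.0491) and 0.01 for Ryr2.

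The mean share differed by less than its spread between SCI 1d and SHAM, with means of 33.8 ± 1.41% and 34.4 ± 1.22% (SD, n = 6 each). At SCI 12w it was 32.2 ± 2.03% (SD, n = 6). With the share as a covariate the 1 day log2 fold change of Cacna1c was 0.39 (edgeR adjusted p = 3.98e-05). The 12 week value was then 0.12 (edgeR adjusted p = 0.156) and was no longer called. SCI 12w against SCI 1d became -0.26 (edgeR adjusted p = 0.00147), and SCI 3d against SCI 1d -0.23 (adjusted p = 0.0331). This covariate was chosen after the values were seen, because Cacna1c moved with it, and a fit with it does not show what part the share had in any result, which was not tested.

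**Figure D4:**
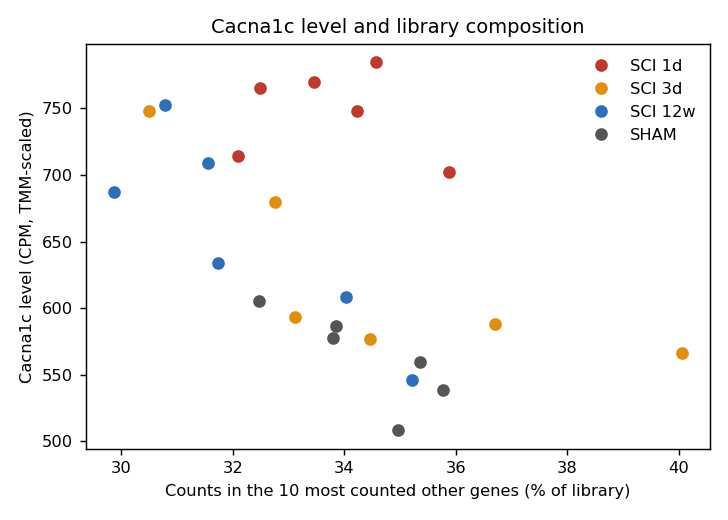
Cacna1c level in CPM (vertical axis, not starting at 0) against the share of counts in the 10 most counted other genes (horizontal axis, in % of the library) for the 24 libraries, coloured by group. At like shares, between 32.1 and 35.9%, the SCI 1d points lie above the SHAM points, and the SCI 3d, SCI 12w and SHAM points fall from left to right.

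The settings tried show how differently the calls at 1 day and 12 weeks held. The 1 day log2 fold change of Cacna1c lay between 0.38 and 0.44 without any 1 of the 24 libraries and between 0.39 and 0.43 under 11 other settings, and was called under each of these. The 12 week value lay between 0.18 and 0.27 without 1 library, called in 18 of 24 such fits, and between 0.12 and 0.26 under the 11 other settings, of which 5 kept the call. All of these values were above 0.

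**Figure D5:**
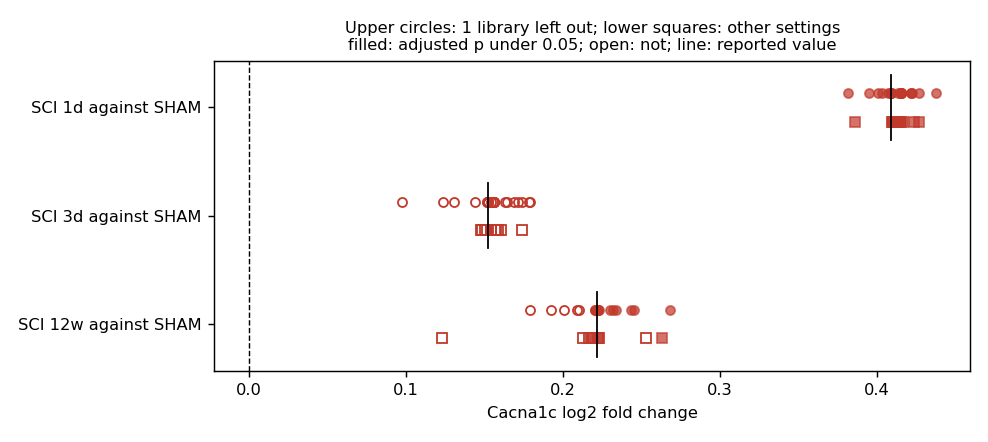
Log2 fold change of Cacna1c (horizontal axis) against SHAM at each time under each setting. Circles leave out 1 library, squares are other settings, filled symbols have an adjusted p under 0.05, and the line is the reported value. The 1 day symbols, at 0.38 to 0.44, are all filled, the 3 day symbols are all open, and the 12 week symbols are mixed.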

How the data were processed

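The deposited table holds raw counts per gene for 24 libraries, with 26166 lines for 23098 Ensembl IDs. Lines that repeat an ID are identical and were used once. Per the submitters' processing notes, the authors used FastQC 0.12.1, STAR 2.7.11a and featureCounts 2.0.6 with build mRatBN7.2. These sources give neither the annotation release nor the strand setting, so overlapping or antisense genes may share reads. In each library 58.1 to 61.1% of gene counts up to 200 were even, so a count may not be 1 independent fragment.

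Counts were fitted in R 4.3.3 with edgeR 4.0.16 (filterByExpr, TMM, 1 quasi-likelihood fit over 24 libraries with a term per group, 20 residual degrees of freedom). All tests are two-sided. P-values were adjusted over 15065 genes by the method of Benjamini and Hochberg. A standard error is the log2 fold change divided by the square root of F. Ratios and correlations used permutation tests. Alternatives used limma 3.58.1, DESeq2 1.42.0, other scalings, filters and covariates, and each library left out. The steps were tested on simulated data. No library pair fell within sampling noise (chi-square per degree of freedom at least 13.3). Groups share replicate numbers, but same-numbered libraries did not deviate together, so the fit has no block.

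The members and lists were chosen with earlier results of these data known. The rule for named genes took the members, further calcium-handling genes by size of change, and the genes most alike in pattern. Of the table's IDs, 0 matched a gene name table, so the listed genes and cell type markers were not run. Promoter sequences are from RefSeq (GRCr8).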

Additional observations from a re-analysis of the deposited data

Results flagged for a closer look

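A few ratios differed between SCI times by direct test, which, since the SHAM libraries are shared, is also the difference between the effects at those times. The log2 ratio of Atp2a2 to Cacna1c was higher by 0.30 at SCI 3d than at SCI 1d (exact permutation p = 0.0108, adjusted p = 0.0390) and by 0.29 at SCI 12w than at SCI 1d (exact permutation p = 0.00866, adjusted p = 0.0390). The log2 ratio of Ryr2 to Cacna1c was higher by 0.24 at SCI 3d than at SCI 1d (exact permutation p = 0.00866, adjusted p = 0.0390). SCI 12w and SCI 1d lie in 1 run of library numbers, and SCI 3d and SCI 1d do not, so that run and time cannot be told apart there. Each of the 3 calls was lost when any 1 of the 6 SCI 1d libraries was left out. The log2 differences in those fits stayed at 0.23 to 0.33, and how far the loss reflects the smaller group was not tested. For Atp2a2 to Cacna1c the values without 1 library were 0.25 to 0.36 at SCI 3d (adjusted p = 0.0195 to 0.0857) and 0.25 to 0.34 at SCI 12w (adjusted p = 0.0130 to 0.0857). For Ryr2 to Cacna1c they were 0.17 to 0.29 (adjusted p = 0.0130 to 0.0857). No library stood outside its group by Dixon's test in the 24 groups of values examined, 12 of levels and 12 of ratios.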

How the results depend on the processing

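Where a member was not called, its sign often turned at values near 0. Atp2a2 at SCI 1d against SHAM was 0.012 with upper-quartile scaling, 0.011 with library totals, 0.0021 without the low-count filter, 0.00084 with only the 2 groups, and -0.035 to 0.020 without 1 library. Ryr2 was -0.0026 at SCI 3d against SHAM with limma-voom and -0.037 to 0.038 without 1 library, and -0.0075 to 0.068 at SCI 12w against SHAM. Between times Ryr2 was 0.013 (SCI 3d against SCI 1d) and -0.0046 (SCI 12w against SCI 3d) without the 3 least correlated libraries, chosen after seeing the data, and -0.0094 (SCI 12w against SCI 1d) with upper-quartile scaling. Without 1 library these were -0.062 to 0.013, -0.016 to 0.077 and -0.038 to 0.038. Cacna1c at SCI 12w against SHAM was no longer called with library totals (0.25), without the filter (0.21), with only the 2 groups (0.22), with the library total as covariate (0.22), with the replicate block (0.22) or with the share of the 10 most counted other genes (0.12). Without 1 library it was 0.18 to 0.27. At SCI 3d against SCI 1d it became called with DESeq2 and limma-voom (-0.26 each) and with the share (-0.23), and was -0.32 to -0.23 without 1 library. At SCI 12w against SCI 1d it became called with upper-quartile scaling (-0.21), DESeq2 size factors, DESeq2 and limma-voom (-0.19 each) and the share (-0.26), and was -0.24 to -0.14 without 1 library. At SCI 12w against SCI 3d it was -0.036 with the share. The genes called between SCI 3d and SCI 1d, 413 in the main fit, were 253 with library totals, 817 with DESeq2, 259 with only the 2 groups, 1018 without the 3 least correlated libraries and 170 to 653 without 1 library.

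Same-numbered libraries of a pair of groups had correlations of -0.18 to 0.15 in their deviations, so the numbers do not pair them. With the replicate block as sign flips over the 6 numbered pairs, the ratio differences of -0.42, 0.30 and 0.29 (Atp2a2 to Cacna1c, at SCI 1d against SHAM, SCI 3d against SCI 1d and SCI 12w against SCI 1d) and of -0.39 and 0.24 (Ryr2 to Cacna1c, the first 2 of these) kept their values and had adjusted p of 0.141 to 0.188. The smallest p these flips allow is 0.03125. Where the sign-flip adjusted p was 0.141, the loss of the call is set by the design and says nothing about stability. For Atp2a2 to Cacna1c at SCI 12w against SCI 1d the p was not the smallest possible (sign-flip adjusted p = 0.188). In that comparison the replicate 5 pair went the other way, with a log2 ratio of 3.90 at SCI 12w and 3.95 at SCI 1d. Beside the other ratio tests, the smallest possible p would not have kept that call either, so its loss too says nothing about stability. Without 1 library the ratio differences between times were 0.25 to 0.36, 0.25 to 0.34 and 0.17 to 0.29 (the last for Ryr2 to Cacna1c at SCI 3d against SCI 1d). Without 1 library, Ryr2 to Cacna1c at SCI 12w against SCI 1d was 0.15 to 0.28 and called without SCI 12w replicate 5, and the SCI 12w against SCI 3d ratios were -0.0011 to 0.043, -0.067 to 0.038 and -0.087 to 0.035. The correlation of Atp2a2 and Ryr2 was 0.53 without the 2 farthest libraries. That of Ryr2 and Cacna1c was 0.12 without the 2 farthest and 0.50 with library totals, and that of Atp2a2 and Cacna1c 0.65 with library totals. With library totals and without the 2 farthest they were 0.19 and 0.40, neither called. The causes were not tested.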
